A study of Homo sapiens with 12 samples.

Results

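The genes described here are 10 immediate early genes, namely FOS, FOSB, FOSL1, FOSL2, JUN, JUNB, JUND, EGR1, IER3 and DUSP1, out of 60708 genes counted in each library. They were found by symbol in both gene count tables of the study, and all 10 were present and passed the filter on low counts in both experiments. They were chosen by their family and selected on measured values, namely the changes with oligomycin A (OA) against those with tunicamycin (TN), with the lean of FOS to OA put forward as the reason. For this reason FOS is given without a p-value throughout, and differences between the OA and TN experiments are given for all 10 genes as descriptions. The question was how these genes stood in cells under mitochondrial stress and under stress of the endoplasmic reticulum (ER).

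RNA-seq libraries were made from HCT116, an established human colon cancer cell line labelled as wild type, 24 h after treatment. There were 4 groups of 3 libraries each, labelled as biological replicates 1 to 3: OA at 5 µg/mL, its own DMSO controls (DMSO of OA), TN at 5 µg/mL, and its own DMSO controls (DMSO of TN). OA inhibits the mitochondrial ATP synthase, TN blocks N-linked glycosylation in the ER, and DMSO is the solvent that all cells received alone or with a stressor. The concentrations are those of the sample labels, whereas the methods of the study give a higher one for OA.

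The libraries held between 9884124 and 24983573 counts, and levels are given as counts per 1000000 counts of the library (CPM) after TMM scaling over all 12 libraries. OA replicate 2 stood apart from its group, with the small cytoplasmic RNA RN7SL1 at 17.9% of counts against 8.4% and 12.5% in the other OA libraries. RN7SL1 also moved with treatment, from 6.02% to 8.11% in DMSO of OA, 6.23% to 7.5% in DMSO of TN, and 9.22% to 13.3% with TN. In the TN experiment replicates 2 and 3 of a group resembled each other closely, with a chi-square per gene of 7.34 in DMSO and 6.25 with TN, and replicate 1 stood apart at 71 to 111 from them. The summed level of 10 colon epithelium markers ranged from 2830 to 5630 CPM, but CDX1, VIL1, CEACAM5 and LGALS4 had at most 3 counts in every library. Summed fibroblast markers were at 1.54 to 2.58 CPM in DMSO of OA, 4.66 to 12 CPM with OA, 1.91 to 4.66 CPM in DMSO of TN and 2.62 to 4.07 CPM with TN, with PDGFRA and LUM at 0 in all libraries. ACTB, a reference for 1 alternative scaling, was at 1710 ± 418 CPM in DMSO of OA, 1150 ± 78.3 with OA, 1440 ± 387 in DMSO of TN and 1110 ± 123 with TN (SD, n = 3). Leukocyte markers summed to 0.0929 to 1.14 CPM. The part of RN7SL1 and of these markers in the results was not tested. In bulk RNA, a change in the number of cells expressing a gene and a change in the RNA per cell cannot be told apart.

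AP-1 is a family of dimeric transcription factors. FOS proteins (FOS, FOSB, FOSL1 and FOSL2) pair with JUN proteins (JUN, JUNB and JUND), and JUN proteins also pair among themselves or with ATF and MAF relatives, to bind the AP-1 site or the related cyclic AMP response element (CRE). Most of these genes are immediate early genes, transcribed within minutes of a growth factor or stress signal from factors already present in the cell, and their mRNAs are short-lived. EGR1 is a zinc finger transcription factor induced through the serum response factor, IER3 is a short stress-responsive protein linked to survival, and DUSP1 is a phosphatase that switches off MAP kinases.

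The promoters of these genes are shown because the CRE core TGACG was the motif that all of them shared. RefSeq promoters (GRCh38.p14, 250 bases before to 50 bases after the annotated start) were given for 8 of the 10 genes, with FOSL1 and IER3 not matched. FOS, EGR1 and DUSP1 are given whole, 5′ to 3′ along the gene, with capitals for TGACG and its reverse complement, the full CRE TGACGTCA, the AP-1 site TGANTCA, the CArG box bound by serum response factor, and TATAAA.

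FOS promoter, chr14:75278578-75278877, plus strand: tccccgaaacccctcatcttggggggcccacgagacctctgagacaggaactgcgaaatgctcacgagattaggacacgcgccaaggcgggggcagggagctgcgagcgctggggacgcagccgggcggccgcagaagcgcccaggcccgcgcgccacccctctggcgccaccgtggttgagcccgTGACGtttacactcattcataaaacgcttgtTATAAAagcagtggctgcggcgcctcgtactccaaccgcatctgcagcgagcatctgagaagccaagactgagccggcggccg

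EGR1 promoter, chr5:138465229-138465528, plus strand: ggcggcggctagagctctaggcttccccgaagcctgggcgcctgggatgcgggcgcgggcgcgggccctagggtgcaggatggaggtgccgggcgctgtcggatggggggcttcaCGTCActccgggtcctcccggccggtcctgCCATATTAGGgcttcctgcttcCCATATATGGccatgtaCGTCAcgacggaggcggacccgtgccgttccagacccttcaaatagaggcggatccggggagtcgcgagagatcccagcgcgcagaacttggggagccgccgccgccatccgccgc

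DUSP1 promoter, chr5:172771146-172771445, minus strand: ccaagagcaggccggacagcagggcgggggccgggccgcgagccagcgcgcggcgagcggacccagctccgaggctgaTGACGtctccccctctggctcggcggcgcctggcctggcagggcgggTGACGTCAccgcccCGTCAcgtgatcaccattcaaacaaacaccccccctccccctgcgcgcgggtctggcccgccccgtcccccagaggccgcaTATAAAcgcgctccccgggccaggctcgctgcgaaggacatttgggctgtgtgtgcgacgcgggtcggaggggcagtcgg

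For the other 5 genes the window around the most upstream CRE core is shown, with that core alone in capitals (CGTCA where it lies on the opposite strand).

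FOSB window, chr19:45467921-45467955, plus strand: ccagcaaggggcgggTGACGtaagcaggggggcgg

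FOSL2 window, chr2:28392642-28392676, plus strand: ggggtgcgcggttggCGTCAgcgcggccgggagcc

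JUN window, chr1:58784151-58784185, minus strand: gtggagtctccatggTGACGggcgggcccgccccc

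JUNB window, chr19:12791334-12791368, plus strand: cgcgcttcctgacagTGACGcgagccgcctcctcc

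JUND window, chr19:18281803-18281837, minus strand: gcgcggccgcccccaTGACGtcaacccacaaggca

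TGACG, read on both strands and including copies inside TGACGTCA, was present in 8 of 8 promoters, against 24.6% of all 35116 promoters and 31.8% of the 15345 promoters of tested genes. In FOS it began 64 bases before the start, in FOSB 60, in JUN 123 and in JUNB 137. The full CRE was found in JUND and DUSP1, against 1.85% of all promoters and 2.87% of those of tested genes. CArG boxes were found only in EGR1 among these promoters, at 2 positions, and 1.29% of all promoters and 1.09% of those of tested genes held the motif. TATAAA lay in FOS, FOSB, JUNB and DUSP1 (11.5% and 6.2% in the same backgrounds), beginning 30 to 33 bases upstream. FOSL2 alone held TGANTCA (7.71% and 5.3%), EGR1 alone held the EGR site GCGNGGGCG (9.43% and 14.9%), and FOSB alone held the ETS core CCGGAA (17.2% and 26.6%). The last 2 motifs were not capitalised above. These are matches of letters, not binding sites.

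With OA all 10 genes were higher in every treated library than in every DMSO library. Leaving out FOS, whose change selected the group, these were 9 of 9 genes, and such a lack of overlap in the higher direction was seen in 14.7% of the 14681 genes tested for OA. The other 9 genes were also chosen with the OA and TN changes in view, and leaving out FOS does not undo this. The counts and medians of the group given here are thus descriptions, and nothing is read from them about the group. The median log2 fold change was 1.46 over the 9 genes (1.45 with FOS), and that of all tested genes was -0.02. Of the 9 genes other than FOS, 3 were called higher by edgeR's quasi-likelihood test (JUN, JUNB and IER3, p-values adjusted by the Benjamini-Hochberg method across every gene tested), where 2.76% of tested genes were called higher. DESeq2 called 6 of the 9, adding FOSB, JUND and DUSP1, where it called 7.81% of tested genes higher. With the replicate number as a block edgeR called 8 of the 9 with OA, all but DUSP1. In that fit 3914 of the 14681 tested genes were called in either direction. With TN the pattern was mixed, with 8 of 9 positive changes and a median of 0.47 (0.46 with FOS) against -0.03 for all tested genes. Here 6 of the 9 genes were higher in all TN libraries than in all controls (15.7% of the 14432 genes tested for TN) and 0 were lower in all of them (17.6%), whereas FOS was lower in all of them. FOSB was the gene called in edgeR among the 9, where 3.65% of tested genes were called higher. DESeq2 called FOSB, JUND and IER3 (3 of 9, where 7.83% of tested genes were called higher), and with the replicate number as a block edgeR called the same 3 genes, where 11.8% of tested genes were called higher.

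**Figure D1:**
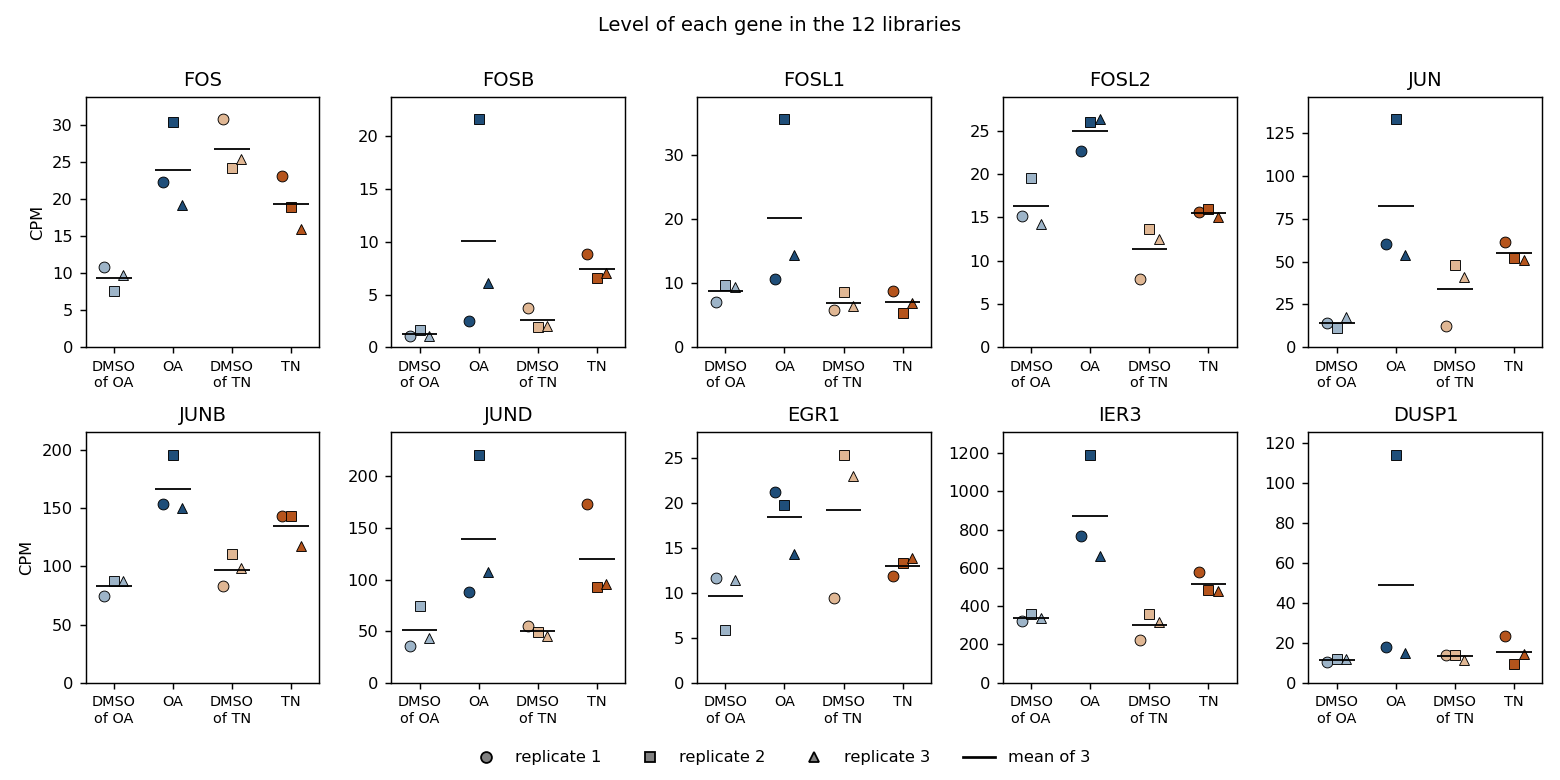
Level of each gene in CPM (linear axes from 0) in the 12 libraries, with symbols for replicates 1 to 3 and a line for the mean of 3. All OA points lie above the DMSO of OA points in each panel, OA replicate 2 is far above the others for FOSB, FOSL1, JUN, JUND and DUSP1, and the DMSO of TN points for FOS lie above the DMSO of OA points.

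FOS (ENSG00000170345.10, chr14:75278826-75282230, plus strand, 3 exon blocks), the founding partner of JUN in AP-1, differed most between the control sets with all libraries kept. Without replicate 1 of DMSO of TN, JUN differed more (log2 difference 1.63, against 1.40 for FOS). FOS stood at 10.8, 7.59 and 9.83 CPM in replicates 1, 2 and 3 of DMSO of OA and at 22.3, 30.5 and 19.2 CPM with OA. In DMSO of TN it stood at 30.8, 24.3 and 25.5 CPM, and with TN at 23.2, 19 and 16 CPM. The OA libraries were all above their controls and the TN libraries all below theirs, without overlap. Its log2 fold change was 1.43 (SE 0.32, n = 3 against 3) with OA and -0.45 (SE 0.25) with TN, and in 1 fit of all 12 libraries the OA change minus the TN change was 1.82 (SE 0.35). The treated means, 24.0 ± 5.84 CPM with OA and 19.4 ± 3.63 CPM with TN (SD, n = 3), were closer to each other than the DMSO means, 9.41 ± 1.65 and 26.8 ± 3.46 CPM (SD, n = 3). Without OA replicate 2 the OA change was 1.16.

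FOSB (ENSG00000125740.14, chr19:45467995-45475179, plus strand, 3 exon blocks), a FOS relative also induced at once by growth signals, had the lowest level per length and the largest fitted change of the 10 genes with TN, and also with OA unless OA replicate 2 alone was left out, where JUN was larger. It was at 1.12, 1.62 and 1.07 CPM in DMSO of OA and at 2.53, 21.6 and 6.12 CPM with OA. These OA values spanned a wide range above the controls, and replicate 2 was the highest. Its fitted log2 fold change was 3.11 (SE 0.78, adjusted p = 0.0634) and 1.76 without OA replicate 2. With the replicate block the OA change passed the test (adjusted p = 0.00522, range over alternatives 0.000125 to 0.242). For TN, FOSB was at 3.72, 1.91 and 2.05 CPM in DMSO and at 8.81, 6.55 and 7.04 CPM with TN, a tight group well above its controls. FOSB rose with TN by a log2 fold change of 1.56 (SE 0.35, adjusted p = 0.041, edgeR), and this call held with the block (adjusted p = 0.00452). Over the alternatives its adjusted p with TN ranged from 0.000139 to 0.168, and it was called in 2 of the 6 fits that left out a library, those without replicate 1 of DMSO of TN and without replicate 1 of TN.

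FOSL1 (ENSG00000175592.9, chr11:65892049-65900573, minus strand, 4 exon blocks), a FOS relative without a transactivation domain that accumulates under sustained ERK signalling, was at 7.01, 9.81 and 9.4 CPM in DMSO of OA and at 10.7, 35.6 and 14.4 CPM with OA. The OA libraries lay above the controls, by a small margin in replicate 1. The log2 fold change of 1.33 (SE 0.49) did not pass the test (adjusted p = 0.154) and was 0.54 without OA replicate 2. With the replicate block the OA change passed (adjusted p = 0.0257, range over alternatives 0.0257 to 0.362). With TN the values of 8.81, 5.34 and 6.95 CPM overlapped those of DMSO of TN, 5.77, 8.64 and 6.51 CPM, and the log2 fold change was 0.02 (SE 0.32, adjusted p = 0.974), a sign that turned with other scalings.

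FOSL2 (ENSG00000075426.12, chr2:28392448-28417317, plus strand, 7 exon blocks), the other FOS relative without a strong transactivation domain, was the steadiest of the 10 genes under OA. Its values were 15.2, 19.5 and 14.2 CPM in DMSO of OA and 22.6, 26 and 26.3 CPM with OA. The OA values were close together and above the controls, and replicate 2 did not stand out. A log2 fold change of 0.70 (SE 0.26) was fitted and did not pass the test (adjusted p = 0.158). With the replicate block it passed (adjusted p = 0.0309, range over alternatives 0.0309 to 0.481). In the TN experiment the values were 7.93, 13.7 and 12.5 CPM in DMSO and 15.6, 16 and 15 CPM with TN, again without overlap, and the log2 fold change was 0.44 (SE 0.28, adjusted p = 0.393).

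JUN (ENSG00000177606.8, chr1:58776845-58784048, minus strand, 4 exon blocks), the AP-1 subunit named as the substrate of the JUN kinase JNK, rose with OA. It was at 14, 11.5 and 17.5 CPM in DMSO of OA and at 60.2, 133 and 53.8 CPM with OA. The lowest OA library was well above the highest control. This was a log2 fold change of 2.63 (SE 0.44, adjusted p = 0.026, edgeR), which was 2.02 without OA replicate 2 (adjusted p = 0.00904). Under TN, JUN was at 12.2, 47.9 and 41.2 CPM in DMSO of TN and at 61.7, 52.4 and 50.8 CPM with TN. Replicate 1 of DMSO of TN was far below the other 2 controls, which lay just under the TN libraries. Its log2 fold change with TN was 0.70 (SE 0.48, adjusted p = 0.428), and with both libraries numbered 1 left out, a choice made after seeing the data, it was 0.20 (adjusted p = 0.165, range over alternatives 0.0741 to 0.585).

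JUNB (ENSG00000171223.6, chr19:12791486-12793315, plus strand, 1 exon block), which often opposes JUN in growth control, rose with OA. It was at 74.6, 87.9 and 87.6 CPM in DMSO of OA and at 154, 196 and 150 CPM with OA, with replicate 2 the highest but near the others. Its log2 fold change was 1.09 (SE 0.24, adjusted p = 0.0467, edgeR). In the TN experiment JUNB was at 82.9, 111 and 98.5 CPM in DMSO and at 143, 143 and 118 CPM with TN. The groups did not overlap, and the log2 fold change of 0.47 (SE 0.22) did not pass the test (adjusted p = 0.25). It passed in 2 of the alternatives, the GC offset with the block (adjusted p = 0.0234) and both libraries numbered 1 left out (adjusted p = 0.0111). The latter was chosen after seeing the data, and the range over alternatives was 0.0111 to 0.504. The exon of JUNB overlaps HOOK2 on the opposite strand over 14.2% of its length, and whether counting used strand is not given in the sources used here.

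JUND (ENSG00000130522.6, chr19:18279694-18281622, minus strand, 1 exon block), the JUN relative with the steadiest expression in resting cells, was at 36.1, 74.7 and 43.5 CPM in DMSO of OA and at 88.2, 221 and 107 CPM with OA. Replicate 2 was the highest library of its group in both, and the lowest OA library was above the highest control. Its log2 fold change was 1.55 (SE 0.45, adjusted p = 0.0882) and 0.94 without OA replicate 2. With the replicate block the OA change passed the test (adjusted p = 0.00108, range over alternatives 0.00108 to 0.304). Around TN treatment JUND was at 55.2, 49.4 and 45.6 CPM in DMSO and at 173, 92.4 and 95.9 CPM with TN. All TN libraries were above all controls, with replicate 1 the highest in both groups. The log2 fold change with TN was 1.3 (SE 0.32, adjusted p = 0.0559), close to that with OA. With the replicate block it passed the test (adjusted p = 0.00508, range over alternatives 7.74e-09 to 0.181).

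EGR1 (ENSG00000120738.8, chr5:138465479-138469303, plus strand, 2 exon blocks) was the other gene besides FOS whose fitted change was positive with OA and negative with TN. It was at 11.6, 5.8 and 11.4 CPM in DMSO of OA and at 21.2, 19.7 and 14.3 CPM with OA. The OA libraries lay above the controls, by a small margin in replicate 3. A log2 fold change of 1.01 (SE 0.36, adjusted p = 0.139) was fitted. With the replicate block the OA change passed the test (adjusted p = 0.0292, range over alternatives 0.0292 to 0.321). For TN, EGR1 was at 9.43, 25.3 and 23 CPM in DMSO and at 11.9, 13.3 and 13.8 CPM with TN. The TN libraries were close together, between the low replicate 1 and the high replicates 2 and 3 of the controls. The log2 fold change with TN was -0.58 (SE 0.39, adjusted p = 0.414), and its sign differed between same-numbered pairs, whose log2 ratios were 0.34, -0.92 and -0.73 for numbers 1, 2 and 3. EGR1 passed the test with TN in 1 of the alternatives, which was chosen after seeing the data and left out both libraries numbered 1, thus the pair that went up (log2 fold change -0.85, adjusted p = 0.000115, range over alternatives 0.000115 to 0.781). In that fit 6267 genes were called.

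IER3 (ENSG00000137331.12, chr6:30743199-30744548, minus strand, 1 exon block) had the highest level per length of the 10 genes and rose with OA. It was at 321, 358 and 336 CPM in DMSO of OA and at 765, 1190 and 660 CPM with OA. The controls were close together, and the lowest OA library was above all of them. This gave a log2 fold change of 1.46 (SE 0.30, adjusted p = 0.0385, edgeR). In the TN experiment IER3 was at 224, 359 and 317 CPM in DMSO and at 579, 485 and 479 CPM with TN, without overlap. The log2 fold change with TN was 0.78 (SE 0.26, adjusted p = 0.116), and with the replicate block it passed the test (adjusted p = 0.0343, range over alternatives 3.11e-06 to 0.243). Antisense gene models, IER3-AS1 and HCG20, overlap 38.9% of the exon.

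DUSP1 (ENSG00000120129.6, chr5:172768096-172771195, minus strand, 4 exon blocks) was the gene that rested most on OA replicate 2. It was at 10.3, 11.9 and 12 CPM in DMSO of OA and at 17.8, 114 and 14.8 CPM with OA. Replicate 2 was several times the other OA libraries, which were themselves a little above the controls. The log2 fold change of 2.24 (SE 0.78, adjusted p = 0.134) fell to 0.54 without that library. With the replicate block the adjusted p was 0.0547 (range over alternatives 0.00147 to 0.336). In the TN experiment DUSP1 was at 14, 14.1 and 11.6 CPM in DMSO and at 23.2, 9.27 and 14.3 CPM with TN, which overlapped. The log2 fold change with TN was 0.27 (SE 0.38, adjusted p = 0.723) and became -0.18 without TN replicate 1.

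**Figure D2:**
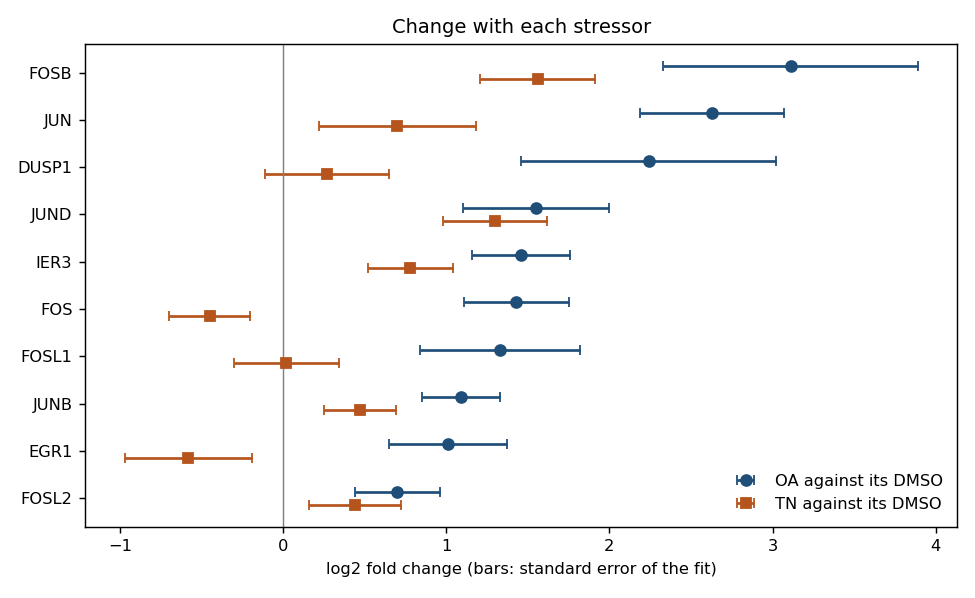
Log2 fold change of each gene with OA (circles) and with TN (squares) against its own DMSO controls, 3 libraries against 3, with bars for the standard error. All OA values lie above 0, from 0.70 for FOSL2 to 3.11 for FOSB, and TN values lie below 0 for FOS (-0.45) and EGR1 (-0.58).

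The calls with OA depended on single libraries, whereas the fold changes moved little when a control was left out. Without replicate 1, 2 or 3 of DMSO of OA the log2 fold change was 2.66, 2.51 and 2.78 for JUN, 1.06, 1.15 and 1.11 for JUNB, and 1.47, 1.52 and 1.45 for IER3. JUN, JUNB and IER3 were each called in 2 of the 6 fits that left out a library (those without OA replicate 1 and without OA replicate 2), with adjusted p up to 0.133, 0.226 and 0.198 in the others. When replicate 1, 2 or 3 of DMSO of OA was left out alone, 5, 3 and 3 genes of all those tested were called, against 658 with all libraries. Without OA replicate 3, 91 were called. Few OA calls, those of other genes included, thus held when 1 control was left out alone. With both libraries numbered 2 left out, a choice made after seeing the data, edgeR called 797 genes. JUN (adjusted p = 0.0165), JUNB (adjusted p = 0.0454) and IER3 (adjusted p = 0.0188) were among them. Without OA replicate 2, 857 genes were called, and the median log2 fold change of the 10 genes was 0.93.

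The OA change minus the TN change, in the fit of all 12 libraries, was positive for all 10 genes, with a median of 1.31, where 44% of the 15429 genes in that fit were positive and their median was -0.06. Since the genes were selected on this difference, nothing is read from these values. It was largest for DUSP1 (1.86, SE 0.90), FOS (1.82, SE 0.35), JUN (1.82, SE 0.65) and EGR1 (1.51, SE 0.52). FOSB (1.43, SE 0.86) and FOSL1 (1.20, SE 0.57) followed. The differences were smaller for IER3 (0.59, SE 0.35), JUNB (0.53, SE 0.28), FOSL2 (0.17, SE 0.34) and JUND (0.16, SE 0.54). FOS had the smallest standard error of the 4 genes at the top. Without OA replicate 2 the difference was 1.61 for FOS, 1.45 for EGR1 and 1.29 for JUN, but 0.28 for DUSP1, 0.19 for FOSB, 0.51 for FOSL1 and -0.35 for JUND, and the median was 0.35.

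The control sets of the experiments differed for some of these genes. In DMSO of TN against DMSO of OA, the log2 difference was 1.51 (SE 0.25) for FOS, 1.24 (SE 0.46) for JUN, 1.01 (SE 0.37) for EGR1 and 1.00 (SE 0.63) for FOSB. FOS, selected on a difference that includes these libraries, was higher in every DMSO of TN library than in every DMSO of OA library. So was FOSB (1 of the 9 other genes, where 3.66% of all tested genes were), and FOSL2, at -0.52 (SE 0.24), was lower in every one (1 of 9, where 5.47% were). For JUN and EGR1, replicate 1 of DMSO of TN lay within the range of DMSO of OA. The other differences were 0.22 for JUNB, 0.21 for DUSP1, -0.04 for JUND, -0.17 for IER3 and -0.33 for FOSL1, and the signs of JUND and IER3 turned with other settings (JUND 0.28 with ACTB scaling, 0.22 with the GC offset, 0.06 with total counts, 0.36 without DMSO of OA replicate 2 and 0.02 without DMSO of TN replicate 3, and IER3 0.14 with ACTB scaling and 0.06 with the GC offset). Between the treated libraries, TN minus OA was -0.31 (SE 0.25) for FOS with overlapping libraries, -0.50 (SE 0.37) for EGR1 and -0.58 (SE 0.46) for JUN. The lowest values were -1.65 (SE 0.64) for DUSP1 and -1.52 (SE 0.41) for FOSL1. Without OA replicate 2 the treated difference was -0.09 for FOS, -0.05 for JUN, -0.06 for DUSP1 and -0.83 for FOSL1, and it was positive for FOSB (0.81) and JUND (0.31). The DMSO difference of FOS was 1.40 to 1.62 when each library was left out in turn, and that of FOSB was 0.62 without replicate 1 of DMSO of TN. The labels do not say whether the experiments were run side by side, so the experiment and the control set cannot be told apart.

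**Figure D3:**
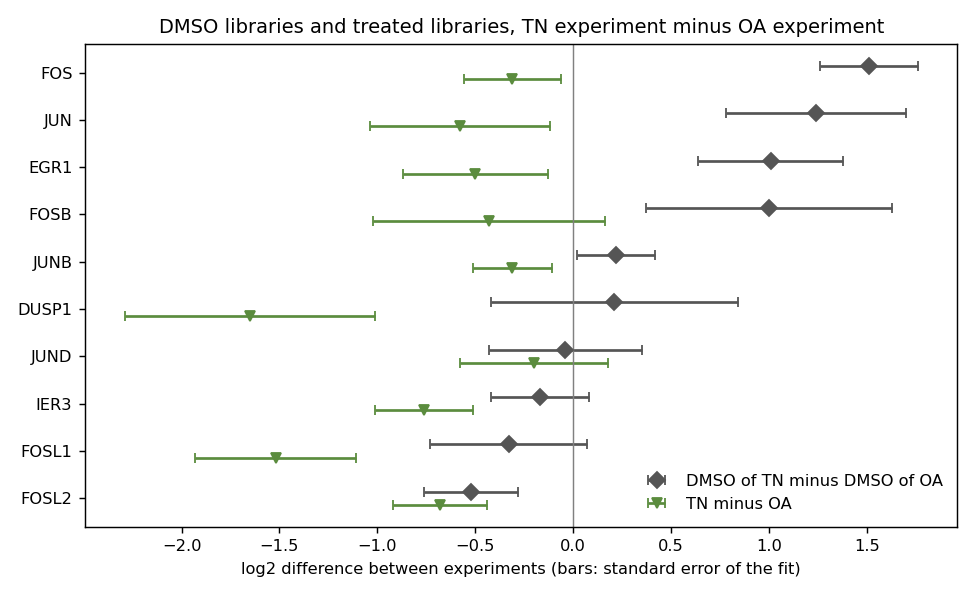
Log2 difference between the TN and the OA experiment for each gene, in the DMSO libraries (diamonds) and in the treated libraries (triangles), with bars for the standard error. FOS, JUN, EGR1 and FOSB have DMSO differences of 1.00 to 1.51, and all treated differences lie below 0, although those of FOSB (0.81) and JUND (0.31) are above it without OA replicate 2.

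Levels were compared between genes per kilobase of exon (CPM per kilobase). In DMSO of OA, IER3 was the highest at 250 ± 13.9, followed by JUNB at 45.6 ± 4.14 and JUND at 26.6 ± 10.6 (SD, n = 3), with no overlap between neighbours. DUSP1 (5.67), FOSL1 (4.63), JUN (3.95), EGR1 (3.05), FOS (2.95) and FOSL2 (2.28) formed a run in which each range overlapped the next. FOSB was the lowest at 0.229 ± 0.0544. With OA the first 3 places were the same, at 646 for IER3, 91.1 for JUNB and 71.9 for JUND, but JUNB and JUND then overlapped, as did JUND and DUSP1. JUN stood at 22.7 ± 12.2, FOS at 7.52 ± 1.83 and FOSB, again the lowest by its mean, at 1.81 ± 1.82 CPM per kilobase, overlapping FOSL2 (3.49 ± 0.29). In DMSO of TN, JUN (9.32 ± 5.24) and FOS (8.43 ± 1.09) took the places after JUND and overlapped each other. With TN the order was IER3 (381), JUNB (73.5), JUND (62.5), JUN (15.2), DUSP1 (7.74), FOS (6.09), EGR1 (4.15), FOSL1 (3.73), FOSL2 (2.17) and FOSB (1.35), and the neighbours JUNB and JUND, DUSP1 and FOS, and EGR1 and FOSL1 overlapped. JUNB and JUND exceeded all FOS family genes per length in each of the 4 groups, without overlap.

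**Figure D4:**
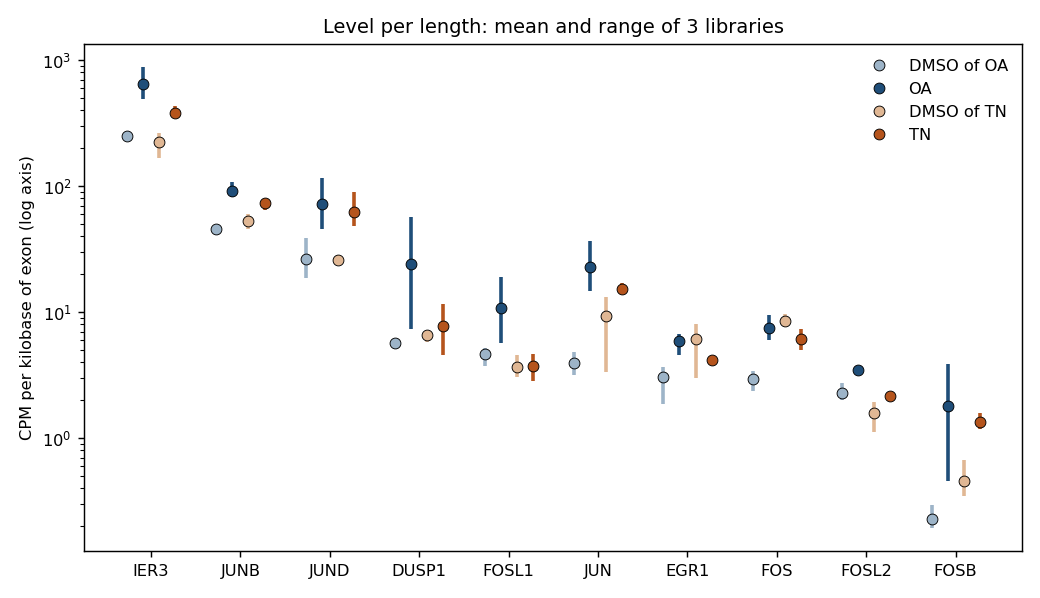
Level per length of each gene (CPM per kilobase of exon, log axis), with a dot for the mean and a line for the range of 3 libraries in each group. IER3, JUNB and JUND lie at the top in all 4 groups and FOSB at the bottom, and DUSP1 with OA spans 7.36 to 56.5.

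Genes around AP-1 were described through 7 lists, by the same edgeR test over all genes. Against these counts, 2.76% of tested genes were called higher and 1.72% lower with OA, and 3.65% higher and 3.34% lower with TN, and the medians of all tested genes were -0.02 and -0.03. Among the AP-1 dimer partners, 5 of 10 tested genes rose with OA and 1 with TN, and the list's median log2 fold changes were 0.92 and 0.80. JDP2, a partner of JUN that represses transcription, rose with both stressors, from 11.8 ± 2.02 to 31.5 ± 3.36 CPM with OA (log2 fold change 1.49, SE 0.26, adjusted p = 0.027) and from 9.98 ± 2.97 to 35.0 ± 2.01 CPM with TN (1.80, SE 0.29, adjusted p = 0.0136). ATF3, a stress-induced partner, rose with OA from 14.8 to 152 CPM on average (log2 fold change 3.49, adjusted p = 0.0313). OA replicate 2 was its highest library at 313 CPM, and replicates 1 and 3 were at 77.1 and 65.9 CPM. With TN it was at 75.4, 61 and 66.1 CPM, above all of its controls at 16.3, 47.4 and 40.1 CPM. That change was not called (log2 fold change 0.96, adjusted p = 0.198, edgeR). CREB5 (3.76, adjusted p = 0.0369), a low gene with a mean of 0.293 CPM in DMSO of OA, and the small MAF protein MAFF (2.36, adjusted p = 0.0465) also rose with OA. CREB5 was at 3.63, 6.13 and 1.45 CPM with OA and at 0.111, 2.08 and 2.55 CPM in DMSO of TN. Replicates 2 and 3 of those controls thus lay within the range of the OA libraries.

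Of the other immediate early transcription factors, 2 of 11 tested genes rose with OA and 1 fell with TN, with medians of 0.36 and -0.16. The zinc finger factor KLF4 rose with OA from 5.51 ± 0.666 to 24.3 ± 4.37 CPM (log2 fold change 2.21, adjusted p = 0.0157), and IER2 rose by 1.11 (adjusted p = 0.0423). MYC, a driver of growth, fell with TN from 216 ± 38.8 to 93.5 ± 15.1 CPM (log2 fold change -1.19, adjusted p = 0.0292). Among immediate early genes of other kinds, 7 of 20 rose with OA, and 2 rose and 1 fell with TN, with medians of 0.70 and 0.26. With OA the lowest p-values belonged to GADD45A, a growth arrest gene (log2 fold change 2.05), ZFP36, which speeds the decay of AU-rich mRNAs (2.08), and AREG, a ligand of the EGF receptor (2.37), at an adjusted p of 0.0157 each, and to BTG1 (3.25, adjusted p = 0.0171). BTG1, an antiproliferative gene, also rose with TN (2.01, adjusted p = 0.00662), as did the kinase PLK3 (0.98, adjusted p = 0.0409), whereas its relative PLK2 fell from 122 ± 6.05 to 40.0 ± 3.03 CPM (log2 fold change -1.60, adjusted p = 0.00656).

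Among genes of ERK feedback and output, 3 of 16 rose with OA, and 2 rose and 1 fell with TN, with medians of 0.72 and 0.14. The nuclear ERK phosphatase DUSP5 rose from 189 ± 18.5 to 996 ± 459 CPM with OA (log2 fold change 2.50, adjusted p = 0.0212) and from 171 ± 54.2 to 508 ± 86.4 CPM with TN (1.55, adjusted p = 0.0249). ETV5, an ETS factor downstream of ERK, rose with OA (1.32, adjusted p = 0.0471) and with TN (0.97, adjusted p = 0.0443). DUSP16, a phosphatase of JNK, rose with OA (1.58, adjusted p = 0.0365), and DUSP2 fell with TN (-1.33, adjusted p = 0.0385). Of the 26 tested kinases and factors upstream 0 were called by edgeR with either stressor in the fits without a block, and 2 with OA and 0 with TN had an unadjusted p under 0.05. With the replicate block 2 rose with TN (MAP2K2 and MAPK13) and 4 fell (MAP3K1, RPS6KA1, RPS6KA3 and RPS6KA4), named after their values were seen. In that fit 11.8% of all tested genes were called higher and 15.3% lower, so nothing is read from these calls.

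Of 20 known AP-1 target genes 13 passed the filter on low counts, and of these 7 rose with OA and 4 with TN, with medians of 1.82 and 0.88. The urokinase gene PLAU rose from 35.0 ± 9.84 to 248 ± 59.4 CPM with OA (log2 fold change 2.92, adjusted p = 0.0116) and from 25.9 ± 2.74 to 181 ± 28.9 CPM with TN (2.79, adjusted p = 0.0024). The chemokine CXCL8 (4.58, adjusted p = 0.0157) rose with OA, from 1.02, 0.512 and 1.07 CPM in DMSO to 15.2, 33 and 9.74 CPM. In DMSO of TN it was at 0.222, 29.7 and 33.5 CPM, so replicates 2 and 3 of those controls reached the level of the OA libraries. Its log2 fold change with TN was -0.34 (adjusted p = 0.899). The metalloproteinase inhibitor TIMP1 rose with OA (1.82, adjusted p = 0.0141) and with TN (1.24, adjusted p = 0.0155). The heme oxygenase HMOX1 rose with TN (1.70, adjusted p = 0.0352). With OA it was at 98.6, 1500 and 159 CPM against 26.9, 39.5 and 36.3 CPM in DMSO, above all controls and highest in replicate 2, and its log2 fold change of 4.26 (SE 1.04) did not pass the test (adjusted p = 0.0589). Without OA replicate 2 it was 1.93 and passed (adjusted p = 0.0138, range over alternatives 3.67e-07 to 0.219). For the genes of these lists the difference between the stressors was not tested. Without OA replicate 2 the OA change moved by over 1.5 times for ATF3 (log2 fold change 2.29), MAFF (1.55), CREB5 (3.15), BTG1 (2.57) and CXCL8 (3.88), and all 5 were still called in that fit. The TN counts above come from the fit without the block. With the block, where 11.8% of tested genes were called higher and 15.3% lower with TN, 2 of the AP-1 dimer partners rose and 1 fell, and 2 rose and 1 fell among the other immediate early transcription factors. Likewise 7 rose and 2 fell among immediate early genes of other kinds, 4 rose and 1 fell among genes of ERK feedback and output, 6 rose and 1 fell among known AP-1 target genes, and 1 rose and 6 fell among genes of AU-rich element mRNA decay. The TN calls of these lists without the block also depended on single libraries, without a change of direction. PLAU, BTG1 and PLK2 were called in all 6 fits that left out a library, JDP2 in 4, DUSP5, TIMP1 and HNRNPD in 2, and MYC, PLK3, ETV5, DUSP2 and HMOX1 in 1, the fit without TN replicate 1. Of 15 genes of AU-rich element mRNA decay, which acts on many immediate early mRNAs, ZFP36 rose with OA (its values are given above, since it is also on the list of immediate early genes of other kinds). HNRNPD, which binds AU-rich elements, fell with OA from 56.6 ± 3.49 to 25.2 ± 5.66 CPM (log2 fold change -1.10, adjusted p = 0.0458) and with TN from 54.7 ± 4.89 to 20.4 ± 6.51 CPM (-1.43, adjusted p = 0.018). The medians of that list were -0.25 and -0.44.

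**Figure D5:**
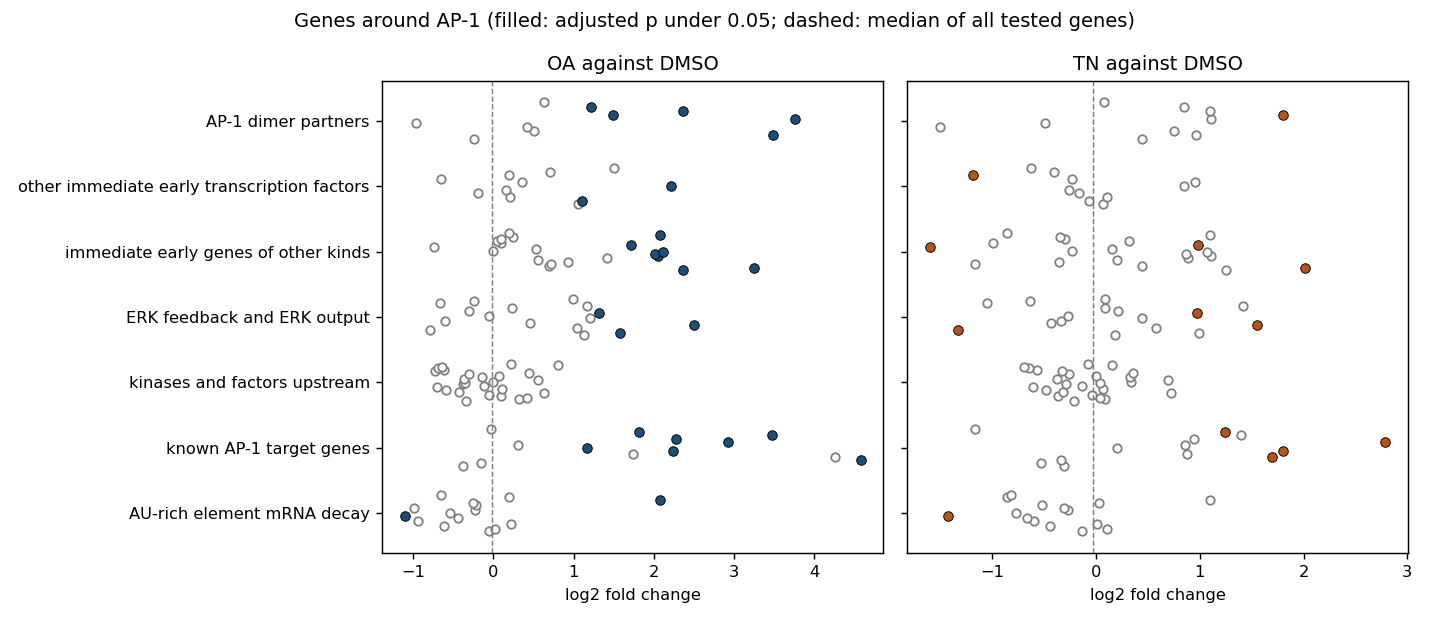
Log2 fold change of the tested genes of each list with OA (left) and with TN (right), with filled points for an adjusted p under 0.05 and a dashed line for the median of all tested genes. Known AP-1 target genes hold 7 filled points with OA and 4 with TN, and the kinases and factors upstream hold none in these fits without a block.

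The genes whose pattern was most like that of FOS were sought among 10566 genes, by Pearson's correlation over the 12 libraries of log2 CPM minus the mean of the own DMSO libraries. These were SLC2A1 (r = 0.94), NBPF8 (0.922), NR2F1-AS1 (0.902), ACTN1 (0.875) and BABAM2 (0.873). SLC2A1, a glucose transporter, went from a mean of 143 to 209 CPM with OA and from 127 to 101 CPM with TN. The points share libraries and their depth, and 6 of them are the DMSO libraries that set the zero, so the values are a description. Among the other 9 genes of the group EGR1 was the most like FOS (r = 0.756), followed by FOSL1 (0.736) and DUSP1 (0.723), and FOSL2 the least (0.29).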

How the data were processed

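HCT116 RNA from 12 libraries was prepared with a stranded total RNA kit per the labels, whereas the methods of the study speak of mRNA-seq. The deposited gene counts of the authors, in 2 tables (OA and TN), were made from reads checked with FastQC 0.11.5 and aligned with STAR 2.7.9 to hg38 with Gencode 32. The strand setting is not given in the sources used here. Tables of the authors' own comparisons (DESeq2 1.30.1 fold changes and p-values) were not used.

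The members and lists were chosen with earlier results of these data known. Genes were filtered with filterByExpr, scaled by TMM and tested in edgeR 4.0.16 (R 4.3.3) with the two-sided quasi-likelihood test, 3 against 3 per stressor, with p-values adjusted by the Benjamini-Hochberg method across the genes tested and calls at an adjusted p under 0.05. Scripts were tested on simulated counts. The labels call replicates biological without naming separate cultures, so p-values measure the spread between these libraries. Depth was 9884124 to 24983573 counts. Coordinates and exon lengths come from Gencode 44 on hg38, matched by identifier for 60463 of 60708 genes, and promoters from RefSeq on GRCh38.p14. CPM per kilobase divides CPM by the exon length. A level in log2 CPM used a prior count of 2. Named genes were the 10 members, ACTB, at most 4 called genes with the lowest p per list and comparison, and the 5 genes most like FOS among those with a mean of at least 5 CPM. Some genes that this rule names are not reported here, although the counts and medians of their list include them.

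Same-numbered libraries deviated together in the TN experiment (correlation of deviations 0.64, 0.4 and 0.42). Replicates 2 and 3 also deviated together across numbers (0.43 and 0.37). These values set replicate 1 apart and do not settle how numbers 2 and 3 pair. In the OA experiment the values were 0.63, 0.54 and 0.09. The labels give numbers but no pairing, so the replicate block was an alternative in both experiments and not the main fit. Alternatives were DESeq2 1.42.0 for the test, other scalings (DESeq2 size factors, total counts, ACTB, without mitochondrially encoded and small noncoding genes), other filters, a GC offset (99.8% of tested genes had a GC content), the replicate block, 1 fit of all 12 libraries and leaving out each library.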

Additional observations from a re-analysis of the deposited data

Results flagged for a closer look

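FOS and EGR1 exceeded their DMSO mean in all 3 OA libraries and fell short of it in all 3 TN libraries. The log2 change of FOS with OA exceeded that with TN by 1.82. Its same-numbered pairs had log2 ratios of 1.03, 1.99 and 0.95 with OA and of -0.41, -0.35 and -0.67 with TN. Treated and DMSO libraries of FOS did not overlap in either experiment. Any pairing of libraries would thus have these signs, and nothing is read from them. For EGR1 the difference was 1.51, with a fitted change of 1.01 with OA and of -0.58 with TN, although its TN and DMSO of TN libraries overlapped. Its same-numbered pairs were all higher with OA (0.87, 1.74 and 0.33), as any pairing would be, since those libraries did not overlap. With TN pair 1 of EGR1 was higher (0.34) and pairs 2 and 3 were lower (-0.92 and -0.73). The difference was not tested, because FOS was chosen by it and the others were chosen with it in view.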

How the results depend on the processing

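With 3 libraries a group, counts of called genes moved with the settings. With OA, 658 genes were called, against 1927 with DESeq2, 1425 with scaling to ACTB, 1572 with no filter, 2387 with the GC offset, 3914 with the replicate block, 3801 with both of these, 1681 with all 12 libraries in 1 fit, and 3 to 1179 when a library was left out. With TN, 1009 genes were called, against 2162 with DESeq2, 1648 with no filter, 3158 with the GC offset, 3915 with the replicate block, 5441 with both of these, 6267 with both libraries numbered 1 left out (chosen after seeing the data), and 151 to 2361 when a library was left out. Of the 9 genes other than FOS, 3 were called with OA, against 6 with DESeq2, 6 with ACTB, 7 with no filter, 5 with the GC offset, 8 with the block, 7 with both, 5 with all 12 libraries in 1 fit, and 0 to 5 when a library was left out. With TN, 1 was called, against 3 with DESeq2, 3 with the block, 4 with the block and GC offset, 5 with both libraries numbered 1 left out, 0 with all 12 libraries in 1 fit, 0 to 2 when a library was left out, and 2 each with DESeq2 size factors, total counts, ACTB, without mitochondrially encoded and small noncoding genes, the GC offset, no filter, and a filter of 10 counts or more per library. The median change of the 10 genes with OA was 0.93 to 1.61 when a library was left out, and the median difference of OA and TN changes 0.35 to 1.62. With both libraries numbered 2 left out (chosen after seeing the data), 797 genes were called with OA, 4 of the 9 among them. The median OA change of the 10 genes was then 0.99. With TN the change of FOSL1 (0.02) turned to -0.17 with total counts, -0.03 with no filter, -0.11 with the GC offset, -0.08 with the GC offset and block, -0.32 with both libraries numbered 1 left out, and -0.19 to 0.21 when a library was left out, and that of DUSP1 (0.27) to -0.14 with both libraries numbered 1 left out and -0.18 to 0.55. The median of all genes moved to 0.42 (OA) and 0.30 (TN) with ACTB, and to -0.23 and -0.18 with total counts. Under the replicate block the calls of JUND and IER3 with TN appeared and no other TN call of the 9 genes changed. Those calls rest on pairing by number, which the data do not settle for replicates 2 and 3 of TN. In the OA experiment the correlations of deviations of same-numbered libraries were 0.63, 0.54 and 0.09. Each OA library correlated best with the DMSO library of its own number, a hint from the data and not from the design. What moved these counts was not tested, except that fits leaving out a library hold fewer samples. The depth of FOSB, 20 to 38 counts in DMSO of OA, limits its values.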
